A study of Mus musculus with 8 samples.

Results

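The transforming growth factor beta (TGF-beta) ligands Tgfb1, Tgfb2 and Tgfb3, the receptors Tgfbr1, Tgfbr2 and Tgfbr3, and the latent TGF-beta binding proteins Ltbp1, Ltbp2, Ltbp3 and Ltbp4 were compared between Notch3IC and Control ID8 IP2 cells. These 10 genes were chosen by symbol among the 23284 symbols listed in the count tables, and all 10 were among the 12430 genes tested. The choice was made with earlier results of these data known. ID8 IP2 is a mouse ovarian surface epithelial tumor line, a subline of ID8 recovered after repeated passage in C57BL/6 mice, and every line used here also carries a luciferase-mCherry lentivirus. Notch3IC lines were infected with a pCCL lentivirus that encodes the HA-tagged Notch3 intracellular domain and, behind an IRES, GFP, and Control lines received the empty pCCL vector. The intracellular domain signals without ligand. Sets 1 to 4 are independent infections, each giving 1 Control and 1 Notch3IC line, so that 4 lines per group were sequenced as polyadenylated RNA. The study states that later testing pointed to mycoplasma in all ID8 IP2 lines, and that ID8 lacks the mutations typical of human high-grade serous cancer. Control libraries held 19013578 to 28208072 counted reads and Notch3IC libraries 15524262 to 27107061.

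TGF-beta is secreted in a latent form, wrapped in its own propeptide, and most cells release that complex bound to a latent TGF-beta binding protein, which docks it on fibrillin and fibronectin in the matrix. Once integrins or proteases free the ligand, it binds the type II receptor, which recruits and phosphorylates the type I receptor, and SMAD2 and SMAD3 carry the signal to the nucleus. In normal ovarian surface epithelium the pathway is known to restrain growth, whereas in carcinoma cells it is known for matrix production and epithelial to mesenchymal transition.

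The labels were checked first. Notch3 stood at 38.7, 40.6, 70.8 and 42.0 normalized counts in the Control lines of Sets 1 to 4 and at 4322, 467, 9220 and 5842 in the Notch3IC lines. Normalized counts are counts scaled to a common library size by edgeR's TMM factors. Every Notch3IC line exceeded every Control line, and Set 2 had the smallest rise, at 3.51 as a log2 ratio of its lines, where Sets 1, 3 and 4 had 6.79, 7.01 and 7.11. The Notch targets Hey1 (log2 fold change 7.35, with a standard error, SE, of 0.99) and Nrarp (7.34, SE 1.02) rose in 4 of 4 sets, each with an adjusted p of 0.0169 by edgeR. Heyl, another target, never exceeded 2 counts in Control and had 215 to 6860 normalized counts in the Notch3IC lines.

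Tgfb1, Tgfb2 and Tgfbr1 were higher in Notch3IC cells by 2.82-fold, 3.2-fold and 2.36-fold. The most abundant ligand per length, Tgfb3, and the receptors Tgfbr2 and Tgfbr3 did not pass the test, and the 4 binding protein genes did not pass it either, although each had a higher mean in Notch3IC. Calls required an adjusted p below 0.1 over all genes tested, by edgeR's quasi-likelihood test on condition alone, together with a change of 1 or more, up or down, on the log2 scale. By this rule 3 of the 10 were called higher, against 3.4% of all genes tested, and 0 were called lower, against 0.74%. At an unadjusted p under 0.05 there were 5, all higher in Notch3IC, against 18.4% of all genes in either direction, and DESeq2 also called 3 higher (5.07% of all genes) and 0 lower (1.38%). The median log2 fold change was 0.53 over the 10 genes and -0.01 over all genes tested. The p-values measure the spread between these infected lines of 1 parent, and in bulk RNA fewer cells expressing a gene and less of its RNA per cell cannot be told apart.

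**Figure D1:**
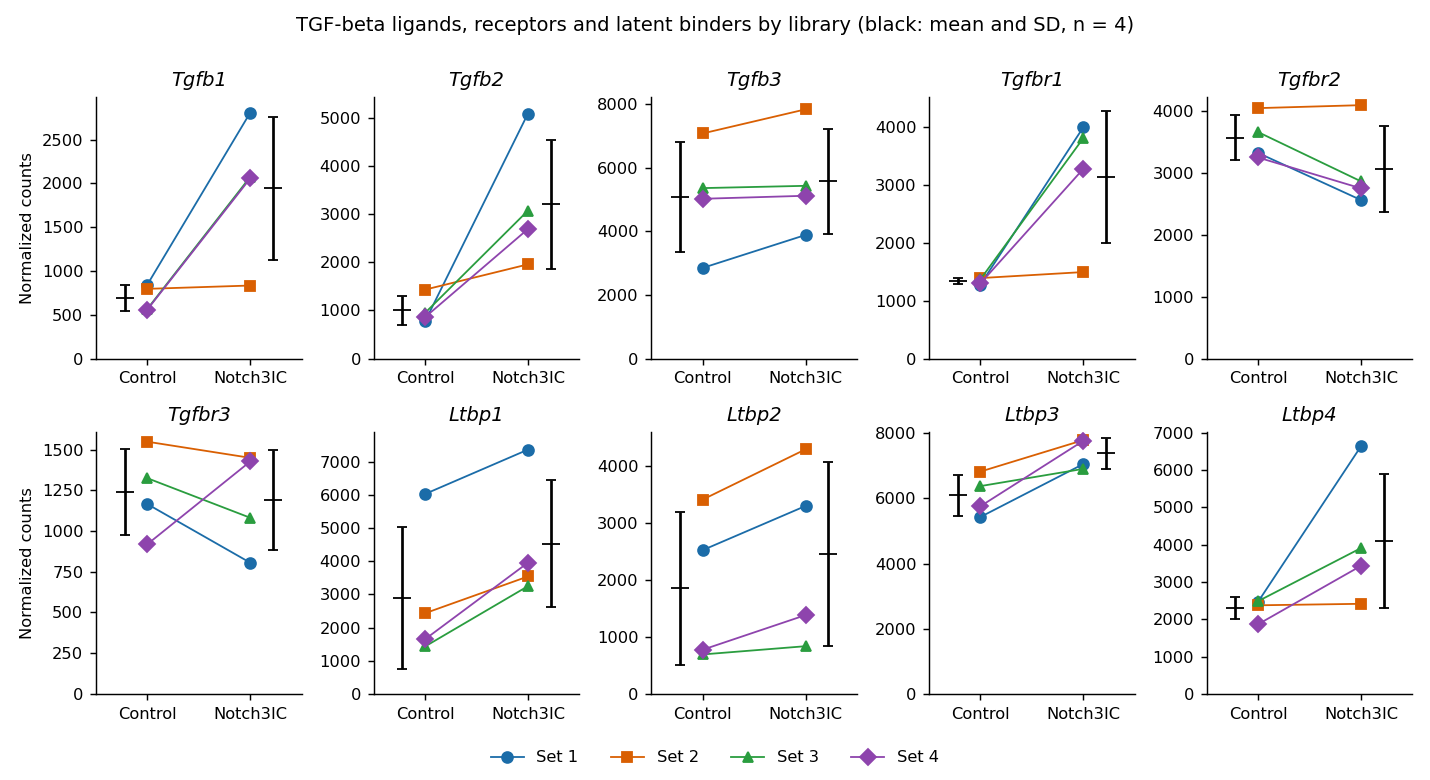
Normalized counts (vertical axis, from 0) of each gene in the Control and Notch3IC line of every set, with a line joining the lines of 1 set and black bars for mean and SD (n = 4 lines). For Tgfb1, Tgfb2 and Tgfbr1 the lines of Sets 1, 3 and 4 climb while that of Set 2 changes least.

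The sequences just upstream of the called genes are shown because these genes were called together. Each is the 250 bases before the first RefSeq start in GRCm38.p6, written 5′ to 3′ on the gene's strand. Capitals mark matches, on either strand, to motifs searched for by their letters: the RBPJ core GTGGGAA read by the Notch complex, the Smad box CAGAC, the E-box CACGTG, the GC box GGGCGG and the AP-1 site TGANTCA. They lie at chr7:25686752-25687001 (plus strand) for Tgfb1, chr1:186705990-186706239 (minus) for Tgfb2 and chr4:47352972-47353221 (plus) for Tgfbr1.
Tgfb1: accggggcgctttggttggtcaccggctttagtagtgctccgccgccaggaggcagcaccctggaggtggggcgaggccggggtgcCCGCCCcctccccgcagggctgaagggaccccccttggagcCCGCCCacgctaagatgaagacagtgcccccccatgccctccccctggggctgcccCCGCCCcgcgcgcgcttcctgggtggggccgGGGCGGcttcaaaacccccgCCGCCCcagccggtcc
Tgfb2: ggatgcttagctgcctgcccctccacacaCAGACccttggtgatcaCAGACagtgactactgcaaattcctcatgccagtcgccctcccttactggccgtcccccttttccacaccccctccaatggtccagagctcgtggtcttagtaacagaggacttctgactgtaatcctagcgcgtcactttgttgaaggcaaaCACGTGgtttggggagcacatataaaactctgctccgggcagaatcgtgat
Tgfbr1: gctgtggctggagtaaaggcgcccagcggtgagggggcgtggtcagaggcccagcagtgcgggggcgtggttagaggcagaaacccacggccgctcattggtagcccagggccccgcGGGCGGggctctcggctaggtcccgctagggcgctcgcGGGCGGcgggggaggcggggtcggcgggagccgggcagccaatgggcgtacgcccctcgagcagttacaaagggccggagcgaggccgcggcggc
The Tgfb1 window is 75.2% G and C and holds 5 GC boxes, at 164, 123, 67, 36 and 16 bases before the start. The Tgfbr1 window is alike in make-up, at 74.8% G and C, with GC boxes at 133 and 95 bases. Tgfb2 differs, with 53.6% G and C against a median of 52.4% over 32851 upstream windows, no GC box, Smad boxes at 221 and 204 bases and an E-box at 51 bases. A GC box occurs in 32.7% of all windows, a Smad box in 42.2% and a CACGTG in 6.02%. The RBPJ core (5.42% of windows) and the AP-1 site (6.75%) were in none of the 3 windows shown. RefSeq windows were matched for 8 of the 10 genes, all but Tgfb3 and Tgfbr3. Tgfbr2, Ltbp1, Ltbp2, Ltbp3 and Ltbp4, which were not called, had no RBPJ core or AP-1 site in any window either. Their windows held GC boxes for Ltbp2 and Ltbp4 and Smad boxes for Tgfbr2, Ltbp1, Ltbp2 and Ltbp3. These features were thus not particular to the called genes. A match is a run of letters, not a bound site.

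Among the ligands, Tgfb1 and Tgfb2 rose and Tgfb3 did not pass the test. Tgfb1 encodes the ligand most widely expressed in adult tissues and lies at chr7:25687002-25705077 in GRCm38. It stood at 845, 796, 567 and 560 normalized counts in the Control lines of Sets 1 to 4 and at 2811, 834, 2077 and 2060 in the Notch3IC lines. The groups overlapped by 1 line, since the Notch3IC line of Set 2 fell between the Control lines of Sets 1 and 2. The mean went from 692 ± 150 to 1945 ± 820 (SD, n = 4 each), a log2 fold change of 1.49 (SE 0.34, adjusted p = 0.0508 by edgeR), and the fold of 2.82 had a 95% confidence interval of 1.65 to 4.79.

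Tgfb2 encodes the ligand that depends most on the co-receptor betaglycan for binding, and lies at chr1:186622792-186705989. Its Control lines held 772, 1434, 949 and 860 normalized counts and its Notch3IC lines 5102, 1961, 3081 and 2697. The groups did not overlap, and the highest value was that of the Set 1 Notch3IC line. The mean went from 1004 ± 296 to 3210 ± 1344 (SD, n = 4 each), a log2 fold change of 1.68 (SE 0.31, adjusted p = 0.0316 by edgeR), or 3.2-fold with an interval of 1.95 to 5.24. In GRCm38, 2.14% of its exon bases lie over Gm29491 on the opposite strand, and the sources used here do not say whether the reads kept the strand.

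Tgfb3, the ligand with the highest level per length in all 8 lines, lies at chr12:86056745-86079041, where Gm37804 and Gm48008 cover 4.82% and 7.6% of its exon bases on the opposite strand. Control lines gave 2852, 7085, 5364 and 5028 normalized counts and Notch3IC lines 3890, 7844, 5436 and 5123. The SD between lines exceeded the difference within any set, with Set 1 lowest and Set 2 highest in both groups. Its means were 5082 ± 1739 and 5573 ± 1654 (SD, n = 4 each), and the log2 fold change of 0.13 had an interval of -0.53 to 0.80 (adjusted p = 0.864 by edgeR). That interval leaves out a doubling. With condition alone the direction was not stable, at -0.07 without the Control line of Set 1 and -0.08 without the Notch3IC line of Set 2. Within Sets 1 to 4 the log2 ratios were 0.45, 0.15, 0.02 and 0.03. In a fit with the set as a block, leaving out any set gave 0.06 to 0.21.

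Of the receptors, Tgfbr1 rose alone. It encodes the type I receptor, the kinase that phosphorylates SMAD2 and SMAD3, and lies at chr4:47353222-47414931. The 4 Control lines were close together, at 1278, 1391, 1368 and 1299 normalized counts, whereas the Notch3IC lines held 3999, 1495, 3811 and 3280. Sets 1, 3 and 4 were far above every Control line, and the Set 2 Notch3IC line lay just above the highest of them. From 1334 ± 53.8 to 3146 ± 1142 (SD, n = 4 each), the log2 fold change was 1.24 (SE 0.27, adjusted p = 0.0468 by edgeR), or 2.36-fold with an interval of 1.54 to 3.62.

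Tgfbr2 encodes the type II receptor, which binds the ligand first and activates its type I partner, and lies at chr9:116084293-116175360. It stood at 3325, 4049, 3662 and 3251 normalized counts in Control and 2563, 4097, 2865 and 2752 in Notch3IC. Sets 1, 3 and 4 were lower in Notch3IC and Set 2 was level. The log2 fold change was -0.22 with an interval of -0.58 to 0.14 (adjusted p = 0.517 by edgeR), so a fall by as much as 1 on the log2 scale lies outside the interval.

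Tgfbr3 encodes betaglycan, a co-receptor that presents ligand, Tgfb2 above all, to the type II receptor. It lies at chr5:107106570-107289629, with 4.54% of its exon bases over Gm43422 on the same strand. Control lines held 1165, 1548, 1324 and 919 normalized counts and Notch3IC lines 805, 1449, 1081 and 1427. The sets went both ways, with log2 ratios of -0.53, -0.10 and -0.29 in Sets 1 to 3 and 0.63 in Set 4. Over the groups the log2 fold change was -0.06 with an interval of -0.56 to 0.45 (adjusted p = 0.93 by edgeR).

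None of the 4 latent binders was called by edgeR or by DESeq2. Ltbp3 and Ltbp4 were the 2 with an unadjusted p under 0.05. All 4 were higher in Notch3IC in 4 of 4 sets, which 21.1% of all genes tested were. Ltbp1, which binds the latent complex covalently and ties it to matrix fibers, lies at chr17:75005568-75392512. It stood at 6023, 2431, 1429 and 1647 normalized counts in Control and 7361, 3539, 3247 and 3955 in Notch3IC. Set 1 was above the other sets in both groups, so the groups overlapped although every set went up. Its log2 fold change was 0.65 (interval -0.45 to 1.75, adjusted p = 0.53 by edgeR).

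Ltbp2 is the family member that does not bind latent TGF-beta and is a microfibril protein, at chr12:84783212-84876532. Its Control lines gave 2528, 3417, 694 and 777 normalized counts and its Notch3IC lines 3305, 4301, 839 and 1386. Sets 1 and 2 were several times above Sets 3 and 4, a gap larger than that between the groups. The log2 fold change was 0.41 (interval -1.08 to 1.89, adjusted p = 0.806 by edgeR), and 9.34% of its exon bases lie over D030025P21Rik on the opposite strand.

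Ltbp3, which also binds the latent complex, lies at chr19:5740904-5758532. It had the highest mean of the binder genes in both groups, behind Ltbp1 in the lines of Set 1, at 5428, 6821, 6376 and 5757 normalized counts in Control and 7053, 7787, 6905 and 7766 in Notch3IC. The groups did not overlap, although the change was small, from 6095 ± 623 to 7378 ± 464 (SD, n = 4 each). Its log2 fold change was 0.28 (interval 0.04 to 0.51, adjusted p = 0.193 by edgeR).

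Ltbp4 encodes a binder with a preference for Tgfb1 that is also needed for elastic fibers, and lies at chr7:27305136-27337692. It had 2469, 2376, 2486 and 1867 normalized counts in Control and 6640, 2416, 3910 and 3434 in Notch3IC. As with Tgfb1, the Notch3IC line of Set 2 lay within the Control range and that of Set 1 was highest. The log2 fold change was 0.83 (interval 0.20 to 1.47, adjusted p = 0.155 by edgeR). Without the Notch3IC line of Set 2 it was 1.02 (adjusted p = 0.0342) and called, and without that of Set 1 it was 0.51 (adjusted p = 0.19). At any fold change DESeq2 passed 4 of the 10 genes as higher, against 8.39% of all genes, adding Ltbp4 (0.81, adjusted p = 0.0521), and 0 as lower, against 4.5%.

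Over the 10 genes, Tgfb2, Tgfbr1 and Ltbp3 were higher in every Notch3IC line than in any Control line, as were 7.08% of all genes tested, and 0 were lower in every Notch3IC line, against 3.75%. The other 7 overlapped. A higher level in 4 of 4 sets was found for 8 of the 10 genes, all but Tgfbr2 and Tgfbr3, against 21.1% of all genes, and a lower level in 4 of 4 sets for 0, against 19.3% of all genes.

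The sets were not alike. Set 1 had 4 of the 10 genes with a log2 ratio of at least 1 (Tgfb1, Tgfb2, Tgfbr1 and Ltbp4), against 6.77% of all genes tested. In Set 2 there were 0, against 2.15%, and its largest ratio was 0.54, for Ltbp1. Sets 3 and 4 each had 4 (Tgfb1, Tgfb2, Tgfbr1 and Ltbp1), against 7.28% and 8.51%. A ratio of -1 or less was found for 0 of the 10 genes in any set, against 4.05, 1.52, 4.61 and 4.3% of all genes in Sets 1 to 4. The median ratio of the 10 genes was 0.42, 0.13, 0.46 and 0.86 in Sets 1 to 4, with that of all genes between -0.01 and 0.01. With 1 line per group in each set, a difference between sets could not be tested. Notch3 itself, Hey1 and Nrarp rose least in Set 2, and the part of their level in these values was not tested.

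**Figure D2:**
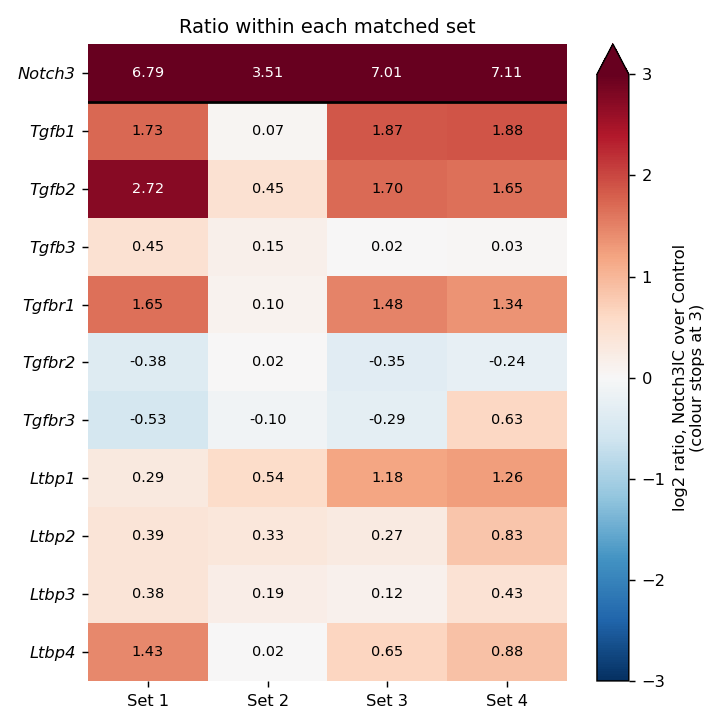
Log2 ratio of normalized counts, Notch3IC over Control, for Notch3 and the 10 genes (rows) in each matched set (columns), with the value printed in each cell and the color scale ending at 3. Below Notch3, Set 2 is the pale column, with ratios from -0.10 to 0.54 for the 10 genes and 3.51 for Notch3.

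Single lines decided the calls of all 3 called genes. Without the Control line of Set 3, the adjusted p was 0.155 for Tgfb1, 0.111 for Tgfb2 and 0.142 for Tgfbr1, and without that of Set 4 they were 0.17, 0.124 and 0.153. Leaving out the Notch3IC line of Set 3 gave 0.131, 0.0875 and 0.129, and that of Set 4 gave 0.149, 0.0899 and 0.144, so that Tgfb2 alone remained called. Over all genes tested, 75 were called higher without the Control line of Set 3 and 99 without that of Set 4. The count was 201 without the Notch3IC line of Set 3 and 155 without that of Set 4, against 423 with all lines. Without the Control line of Set 1, Ltbp1 was called too, at a log2 fold change of 1.30 (adjusted p = 0.0806), whereas without the Notch3IC line of that set it was at 0.33 (adjusted p = 0.719). Every such fit left the log2 fold changes of Tgfb1, Tgfb2 and Tgfbr1 at 1.11 or more.

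The set numbers pair the lines, and a fit with the set as a block was made beside the first. It called the same 3 genes, Tgfb1 (log2 fold change 1.42, adjusted p = 0.0497), Tgfb2 (1.63, adjusted p = 0.0437) and Tgfbr1 (1.16, adjusted p = 0.0474), against 5.19% of all genes tested called higher, and 0 lower, against 2.53%. At an adjusted p under 0.1 and any fold change, 7 of the 10 genes were higher with the block, against 14.9% of all genes, and 1 was lower, Tgfbr2, against 12.1%. The log2 fold changes of the 4 binders in this fit were 0.82 for Ltbp1 (adjusted p = 0.0454), 0.46 for Ltbp2 (0.0432), 0.28 for Ltbp3 (0.057) and 0.75 for Ltbp4 (0.076). Tgfbr2 was at -0.24 (SE 0.08, adjusted p = 0.0949), while Tgfb3 (adjusted p = 0.235) and Tgfbr3 (0.819) passed in neither fit. Without Set 1, 3 or 4, 0 of the 8 genes passing the block stayed under an adjusted p of 0.1 (0.126 to 0.336). Without Set 2 all 8 passed. Calls over all genes, at the fold limit of 1, moved alike in these fits. They were 46, 59 and 129 higher without Sets 1, 3 and 4 in turn, and 904 without Set 2, against 645 with all sets. Lower calls were 23, 22 and 30, and 426 without Set 2, against 315.

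**Figure D3:**
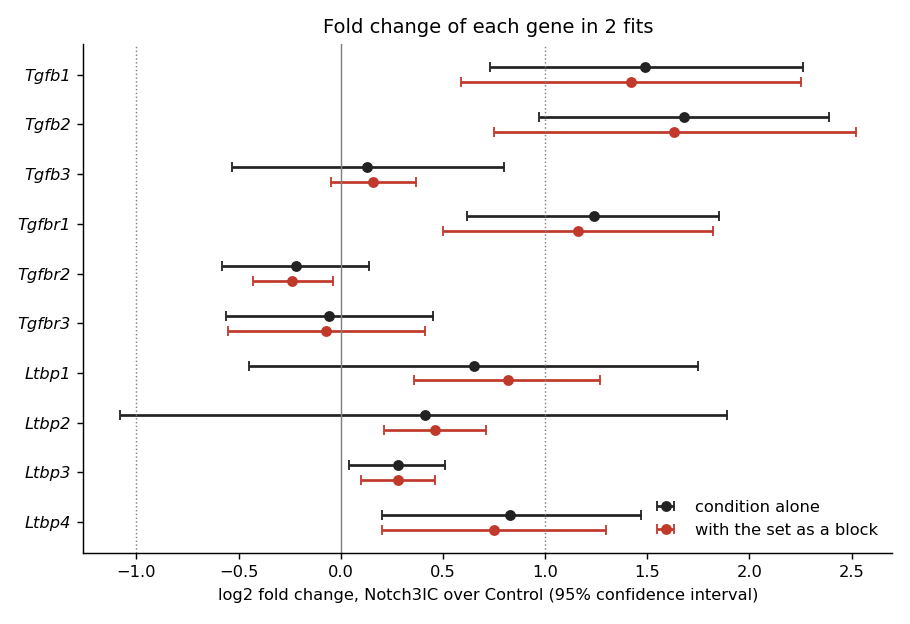
Log2 fold change of each gene, Notch3IC over Control (horizontal axis), as a point with its 95% confidence interval, with condition alone (black) and with the set as a block (red), and dotted lines at the fold limit of 1. The intervals of Ltbp1 and Ltbp2 shrink most with the block, and those of Tgfb3 and Tgfbr3 span 0 in both fits.

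Levels of different genes were compared per length, as CPM on the TMM-scaled library size, divided by the kilobases of exon. In Control cells Tgfb3 stood at 64.4 ± 22 on this scale (SD, n = 4), against 7.43 ± 2.19 for Tgfb2 and 5.88 ± 1.27 for Tgfb1, a gap beyond the spread between lines, while Tgfb2 and Tgfb1 did not differ beyond theirs. Notch3IC cells held 70.6 ± 21, 23.8 ± 9.95 and 16.5 ± 6.96, the last pair again within their spread. Tgfb3 thus remained the first ligand, and its share of the ligand reads per kilobase went from 81.9% ± 5.54 to 63.2% ± 15.4. The share of Tgfb3 by line was 73.7, 83.8, 85.2 and 85.1% in Control and 44.4, 82.1, 63.0 and 63.4% in Notch3IC. The Set 2 line was the only Notch3IC line in the Control range. With the longest transcript of each gene as its length, the mean share went from 75.2% to 54.7%. With that length Tgfb1 came above Tgfb2, with mean shares of 14.8% against 10% in Control and 24.8% against 20.5% in Notch3IC, where exon length had given 8.34% against 9.72% and 15.2% against 21.6%, so their order depends on the length used. The summed ligand level was 77.7 ± 23.8 in Control and 111 ± 7.67 in Notch3IC, and 107 and 121 in the lines of Set 2.

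In Control cells the order of the receptors was Tgfbr2 (18.7 ± 1.91), Tgfbr1 (8.75 ± 0.353) and Tgfbr3 (8.11 ± 1.74), on the same scale, the last pair within their spread. In Notch3IC cells Tgfbr1 (20.6 ± 7.49) and Tgfbr2 (16.1 ± 3.64) did not differ beyond their spread. Tgfbr1 made up 25.1, 22.5, 24.4 and 27.0% of receptor reads per kilobase in the Control lines and 58.4, 24.1, 53.1 and 47.5% in the Notch3IC lines. It held the largest share of the receptor genes in 3 of the 4 Notch3IC lines, again not in that of Set 2. Tgfbr2 went from 52.6% ± 0.881 to 36.6% ± 10.8. Among the binders the order in Control was Ltbp3 (28.8 ± 2.95), Ltbp4 (15.2 ± 1.94), Ltbp1 (11.6 ± 8.57) and Ltbp2 (9.71 ± 7.03), and it was the same in Notch3IC (34.9 ± 2.19, 27.2 ± 12, 18.1 ± 7.67 and 12.9 ± 8.49). Ltbp3 and Ltbp4 differed beyond their spread in Control, and no other neighbors in that order did in either group.

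**Figure D4:**
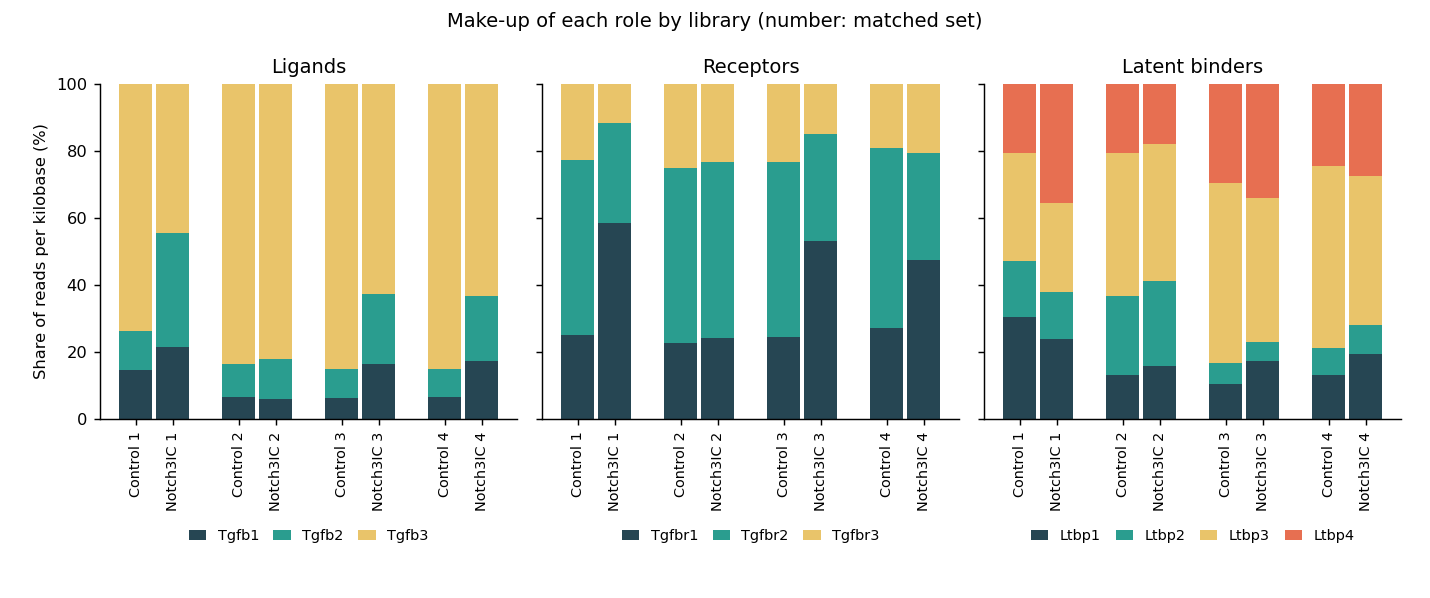
Share of reads per kilobase (percent, vertical axis) taken by each gene among the ligands, receptors and latent binders in each of the 8 lines, Control and Notch3IC of a set side by side. Tgfb3 shrinks and Tgfbr1 grows in the Notch3IC lines of Sets 1, 3 and 4 and hardly moves in Set 2.

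Of 23 genes listed whose products release or present the ligand, 20 were tested, and 7 rose and 0 fell, against 3.4% of all genes tested called higher and 0.74% lower. The median log2 fold change was 0.94 beside -0.01 over all genes. This list and the pathway lists below were chosen with earlier results of these data known. Their counts are therefore a description and not independent evidence. Lrrc32 encodes GARP, a membrane protein that holds latent TGF-beta at the cell surface. It went from 40.7, 66.9, 12.4 and 15.1 normalized counts to 436, 155, 599 and 996, a log2 fold change of 4.05 (SE 0.71, adjusted p = 0.0275 by edgeR). Even in Set 2 the Notch3IC line lay above every Control line. Itgb3 (log2 fold change 2.59, adjusted p = 0.0456) and Itgb5 (1.65, adjusted p = 0.0287) encode partners of integrin alpha v that can free the ligand. The integrins were a family the study singled out in these same lines, so their calls are not independent evidence. Fbn1, for the fibrillin on which the binders dock, went from 4785 ± 1657 to 14125 ± 5104 normalized counts (SD, n = 4 each), a log2 fold change of 1.56 (adjusted p = 0.0435).

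The other genes of this group that rose encode proteases and a proteoglycan. Bmp1, whose product cuts Ltbp1 and procollagens, had a log2 fold change of 1.60 (adjusted p = 0.0359 by edgeR). Mmp14, a membrane protease, was at 1.27 (adjusted p = 0.0604), and Bgn, for biglycan, which binds TGF-beta, at 1.69 (adjusted p = 0.0464). Each of the 7 was higher in all 4 Notch3IC lines than in any Control line, as were 7.08% of all genes tested. The 7 were picked by their calls, so this adds no separate evidence. With condition alone, all 7 were lost as calls without the Control line of Set 3 or that of Set 4, where 0 remained. Without the Notch3IC line of Set 3 there were 4 and without that of Set 4 there were 2. Over all genes tested these fits called 75, 99, 201 and 155 higher, in that order, against 423 with all lines. With the block 9 were called, against 5.19% of all genes, adding Thbs1 (1.97, adjusted p = 0.0215), for a matrix protein that activates latent TGF-beta, and Plat (1.27, adjusted p = 0.0822), for a plasminogen activator. With the block, 0 were called without Set 1 or without Set 4, 1 without Set 3 and 10 without Set 2. Over all genes these blocked fits called 46, 129, 59 and 904 higher, in that order, against 645 with all sets. With the block and at any fold change, 13 genes of the group were higher, against 14.9% of all genes, and 1 was lower, against 12.1%. The lower gene was Dcn (-0.53, adjusted p = 0.0275), with log2 ratios of -0.81, -0.53, -0.42 and -0.39 in Sets 1 to 4. With condition alone Dcn was at -0.47 (adjusted p = 0.809 by edgeR). Itgb1, the most abundant gene of the group per length over the 8 lines, was at 0.14 (adjusted p = 0.821 by edgeR with condition alone). In Notch3IC the mean of Bgn per length was above that of Itgb1, at 280 against 209 CPM per kilobase.

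The relay inside the cell showed 0 calls in either direction by edgeR among 10 genes tested (3.4% of all genes were called higher and 0.74% lower) and 0 by DESeq2 (5.07% and 1.38%), counts too small to set apart from those shares. At an unadjusted p under 0.05 there was 1, against 18.4% of all genes, Smad2, for a transcription factor phosphorylated by Tgfbr1, with a log2 fold change of 0.57 (adjusted p = 0.0386), under the fold limit. With the block and at any fold change, Smad2 was higher (0.56, adjusted p = 0.0288), and Smad3, its partner (-0.26, adjusted p = 0.0368), and Dab2, for an adaptor protein (-0.38, adjusted p = 0.076), were lower, each in 4 of 4 sets. In that fit 14.9% of all genes were higher and 12.1% lower, near the 1 and 2 of these 10. The group's median with condition alone was -0.01, and Strap, its most abundant gene per length, whose product binds the receptors, was at -0.07 (adjusted p = 0.897). Among 14 inhibitors edgeR and DESeq2 also called 0, beside the same shares of all genes, and the median was 0.14. Against 18.4% of all genes, 1 inhibitor, Tgif2, for a repressor that binds SMADs, had an unadjusted p under 0.05 (-0.51, adjusted p = 0.237). With the block and at any fold change, 4 inhibitors were higher, against 14.9% of all genes, and 1, Tgif2, was lower (-0.53, adjusted p = 0.0417), against 12.1%. Smad7, the inhibitory SMAD that the pathway itself induces, was at 0.48 (adjusted p = 0.441) and, with the block, at 0.51 (adjusted p = 0.0386). Fkbp1a, which keeps the type I receptor quiet and was the most abundant inhibitor gene per length, was at 0.08 (adjusted p = 0.894).

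Genes known to respond to TGF-beta gave 3 rises and 0 falls among 23 tested of 25 listed, against 3.4% of all genes called higher and 0.74% lower. Their median log2 fold change was 0.92. Snai2, for a transcription factor of epithelial to mesenchymal transition, went from 463, 586, 438 and 358 normalized counts to 2312, 1092, 2864 and 2818, and every Notch3IC line was above every Control line. Its log2 fold change was 2.30 (SE 0.31, adjusted p = 0.0169 by edgeR). Postn, for the matrix protein periostin, was near the floor in Control, at 63.5, 13.1, 7.66 and 3.17 normalized counts, and stood at 4071, 278, 1274 and 1682 in Notch3IC (6.40, SE 1.08, adjusted p = 0.025). Id3, for an inhibitor of helix-loop-helix factors, was at 1.38 (adjusted p = 0.0797). Ctgf, a well-known response gene, did not pass, at 0.93 (adjusted p = 0.567).

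With the block 8 response genes were called, against 5.19% of all genes. The 5 added were Col1a1 (log2 fold change 1.04, adjusted p = 0.0386 with the block) and Col1a2 (1.15, adjusted p = 0.0708), for the chains of collagen I, Acta2 (1.45, adjusted p = 0.0362) and Tagln (1.07, adjusted p = 0.0451), for contractile proteins, and Tgfb1i1 (1.61, adjusted p = 0.0297), for an adaptor protein of focal adhesions. The collagens were another family the study singled out in these lines. Smad7, Skil and Pmepa1 stand in both the inhibitor and the response list. With the block, 1 response gene was called without Set 1, without Set 3 or without Set 4, and 9 without Set 2. Over all genes the block called 46, 59 and 129 higher without Sets 1, 3 and 4 in turn, and 904 without Set 2. With condition alone, where 3 were called in all lines, 1 was called without the Control line of Set 3 or that of Set 4. There were 2 without the Control line of Set 2 or the Notch3IC line of Set 3 or of Set 4, and 6 without the Notch3IC line of Set 2. Over all genes, 442, 75 and 99 were called higher without the Control line of Set 2, 3 or 4, against 423 with all lines. Without the Notch3IC line of Set 2, 3 or 4 the counts were 702, 201 and 155.

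In the activin branch, whose ligands use the same SMADs through other receptors, 2 of 9 genes tested rose and 0 fell, against 3.4% of all genes called higher and 0.74% lower, with a median of 0.79. Inhbb, for the subunit of activin B, went from 31.7 ± 19.8 to 388 ± 303 normalized counts (SD, n = 4 each), a log2 fold change of 3.61 (adjusted p = 0.0386 by edgeR). Fst, for follistatin, which binds and neutralizes activins, went from 316 ± 61.7 to 1384 ± 569 (2.13, adjusted p = 0.0187) and had the highest level per length over the 8 lines, although Acvr2a, for an activin receptor, was above it in the 4 Control lines. With the block 3 were called, against 5.19% of all genes, adding Inhba (1.03, adjusted p = 0.016), and this fit called 0 without Set 1, 3 without Set 2 and 1 without Set 3 or without Set 4. Over all genes this fit called 46, 904, 59 and 129 higher without Sets 1 to 4 in turn. With condition alone, without the Control line of Set 3, that of Set 4 or the Notch3IC line of Set 4, 1 gene of the branch was called, and without the Control line of Set 1 there were 3. Over all genes these fits called 75, 99, 155 and 480 higher, in that order, against 423 with all lines.

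**Figure D5:**
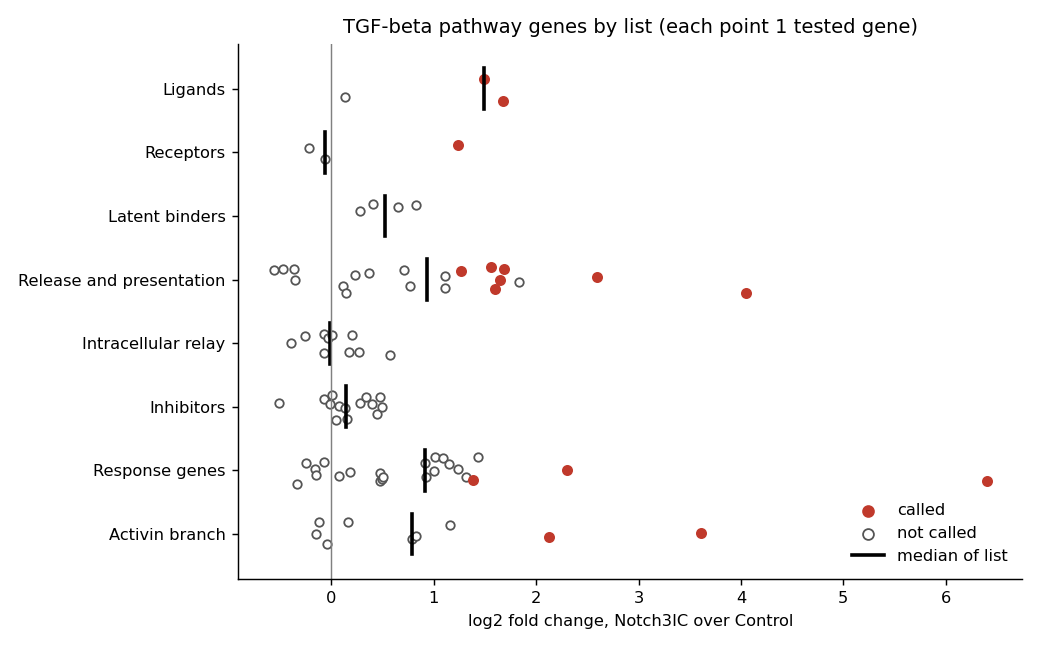
Log2 fold change, Notch3IC over Control (horizontal axis), of each tested gene of the TGF-beta pathway by list, filled where called with condition alone, with a black bar at the median of the list. Called points lie to the right in the ligands, the receptors, the release and presentation group, the response genes and the activin branch, and the relay and the inhibitors hold none.

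By a rule that took the member with the smallest p of each role, the genes with the most similar levels over the 8 libraries were listed by Pearson correlation of log2 CPM. For Tgfb2 they were Fbxo32 (0.981), Marcks (0.975) and Lsp1 (0.973). Those nearest to Tgfbr1 were Pja1 (0.991), Klf11 (0.989) and Cd97 (0.988), and those nearest to Ltbp4 were App (0.993), 2010109K11Rik (0.978) and Cbfa2t2 (0.976). All values rest on the same 8 libraries, which share the split by condition and by set, and they are a description.

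Markers of cell types were compared between the same lines. Of 11 markers of ovarian surface epithelium and mesothelium, 9 were tested, 0 rose and 2 fell, Msln (log2 fold change -2.60, adjusted p = 0.0625 by edgeR) and Upk1b (-2.19, adjusted p = 0.0762), and 5 fell with the block, against 0.74% of all genes and, with the block, 2.53%. Their summed normalized counts came to 24834, 45637, 72326 and 69348 in the Control lines and 7351, 28938, 25665 and 19744 in the Notch3IC lines. Upk3b had the most counts in 6 lines and Wt1 in the Notch3IC lines of Sets 1 and 4. With any single line of Set 3 or 4 left out, neither Msln nor Upk1b was called (adjusted p from 0.162 to 0.232), nor was Upk1b without the Control line of Set 2 (0.114). Over all genes, 77, 8 and 11 were called lower without the Control line of Set 2, 3 or 4, against 92 with all lines. Without the Notch3IC line of Set 3 or 4 the counts were 29 and 16. Krt7 had 1.12 to 44.0 and Epcam 2.24 to 9.51 normalized counts in the 8 lines, near 0 for defining markers of epithelium, whereas Krt8, Krt18 and Wt1 had at least 739. The marker sum was lowest in Set 1 in both groups.

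Of 9 mural cell and fibroblast markers, 4 were tested, and Pdgfrb (5.99, adjusted p = 0.0169) and Cspg4 (4.20, adjusted p = 0.0169) rose, against 3.4% of all genes, and stayed called whichever single line was left out. With the block 3 were called higher, against 5.19% of all genes, adding Cnn1 (1.04, adjusted p = 0.0849). Rgs5, too low in counts for the edgeR test, was called higher by DESeq2 (3.85, adjusted p = 0.00037). The summed counts of these markers came to 2500, 8173, 4084 and 4586 in Control and 7371, 9192, 15475 and 19156 in Notch3IC. Pdgfra led them in the Control lines and the Notch3IC line of Set 2, and Pdgfrb in the Notch3IC lines of Sets 1, 3 and 4, while Thy1 and Lum had at most 3.17 normalized counts in any line. The part of both marker groups in the results above was not tested. Leukocyte markers summed to 56.5 to 128 normalized counts, led by Cd68 in 7 lines and by Csf1r in the Notch3IC line of Set 1, with Emr1 and Cd3e at 0 in all 8 lines and Ptprc at 0 in 7. Csf1r, 1 of the 2 tested of 8, rose from 8.67 ± 2.38 to 24.7 ± 11 (SD, n = 4 each). It was called (adjusted p = 0.0719 by edgeR), against 3.4% of all genes called higher. With any single line of Sets 1, 3 or 4 left out it was not called (adjusted p from 0.11 to 0.228). Over all genes, 480, 75 and 99 were called higher without the Control line of Set 1, 3 or 4, against 423 with all lines. Without the Notch3IC line of these sets the counts were 381, 201 and 155. Cd68, the other tested, had log2 ratios of -0.45, -0.27, -0.43 and -0.45 in Sets 1 to 4 (adjusted p = 0.61 by edgeR). Endothelial markers summed to 12.7 to 50.3, led by Pecam1 in all but the lines of Set 1, with Cdh5 at most 1.91. In Set 1, Kdr led in the Control line, and Pecam1 and Kdr were level in the Notch3IC line, at 24.6 each. Of 6 endothelial markers 2 were tested, and 0 were called by edgeR or DESeq2 or had an unadjusted p under 0.05. Tgfb1, the ligand with the lowest mean, had at least 560 normalized counts in every line, and the part of leukocytes or endothelial cells in the results above was not tested.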

How the data were processed

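Polyadenylated RNA of 4 Control and 4 Notch3IC lines was sequenced as single-end reads. The authors deposited a table for each library with raw read counts by gene symbol. The submitters' processing notes name TopHat, Cufflinks, DESeq and the build mm9. Versions, annotation and strandedness are not given in the sources used here. Strand and multi-mapped reads could therefore shift counts of overlapping genes.

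Notch3IC was compared with Control in edgeR 4.0.16 (R 4.3.3) with TMM normalization, filterByExpr, a robust quasi-likelihood fit and Benjamini-Hochberg adjustment over 12430 genes. Standard errors were the log2 fold change over the root of F. Set ratios used a pseudocount of 0.5. Scripts were tested on simulated data. Same-set lines deviated together (correlations 0.80, 0.40, 0.57 and 0.41 across genes, against -0.50 to 0.37 for crossed pairs), and the study describes the sets as matched infections. The alternatives were the set as a block, DESeq2 1.42.0, other normalizations, filters and thresholds, and leaving out lines or sets. DESeq2 with the block was added after the data were seen.

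Symbols were placed on GRCm38 with GENCODE M21 (20882 by symbol, 1943 by synonym). Positions and lengths come from there, and the count tables hold no coordinates. Named genes were the 10 members, the label checks, the called genes of each list (in the pathway lists, also those called only with the block), its most abundant gene per length, and the 3 genes most like the top member of each role. Dcn, Smad2, Smad3, Dab2, Smad7, Tgif2, Acvr2a, Ctgf and single markers were named after their values were seen. Members and lists were chosen with earlier results of these data known.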

Additional observations from a re-analysis of the deposited data

Results flagged for a closer look

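Each group of 4 lines was searched for a highest or lowest line standing apart from the rest by Dixon's criterion, over the genes whose levels or fold changes are given, the shares of the 10 genes, the sums by role and by marker group, and the library totals. It marked 26 of 166 groups. By chance about 1 in 20 would be marked, which here is 8.3, and many of the groups share lines and genes. Of these, 19 were lines of Set 1, 1 of Set 2, 3 of Set 3 and 3 of Set 4. The normalized counts of the TGF-beta ligands, receptors and latent binders gave 0, and their shares gave 5. In Control, the Set 1 line had the highest share of Tgfb1 among the ligands (14.6%) and of Ltbp1 among the binders (30.4%) and the lowest of Tgfb3 (73.7%), and the Set 4 line had the highest share of Tgfbr2 among the receptors (53.9%). In Notch3IC, the Set 2 line had the highest share of Tgfbr2 (52.6%).

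In normalized counts, the Set 1 Notch3IC line was the highest of its group for Thbs1 (60513), Itgb1 (28483), Fkbp1a (10181), Acta2 (73808), Tagln (4115), Inhba (1257), Ctgf (5210), Kdr (24.6) and Ptprc (2.24). The Set 1 Control line was the highest for Itgb1 (25357), Fkbp1a (9358), Tagln (2011), Postn (63.5), Inhba (502), Smad7 (1292) and Ctgf (2243). The Set 3 Control line was the highest for Notch3 (70.8), Krt7 (44.0) and Cdh5 (1.91). The Set 4 Notch3IC line was the highest for Cdh5 (0.845) and for the summed leukocyte markers (121). For Ptprc and Cdh5 the other lines of the group were at 0.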

How the results depend on the processing

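Tgfb1, Tgfb2 and Tgfbr1 stayed called under RLE and upper-quartile normalization, scaling by totals, both filters, DESeq2 and the set block. Their log2 fold changes stayed at or above 1.39, 1.61 and 1.13 over these. At an adjusted p under 0.05, Tgfb1 was lost and 290 genes were called higher and 48 lower. Without a fold limit 622 were called higher and 210 lower, with DESeq2 707 and 192, with the block 645 and 315, and with DESeq2 and the block 732 and 339, against 423 and 92. The block changed none of the calls of the 10 genes.

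Leaving out a line or a set gave 0 to 702 genes called higher and 0 to 305 lower, and 0 to 4 of the 10 genes higher. Without Set 2, Ltbp4 was called too (1.03, adjusted p = 0.0753). Without Set 3 the 3 calls were all lost (adjusted p from 0.268 to 0.354), as without Set 4 (0.309 to 0.43). Calls over all genes tested also nearly vanished in the fits lacking Set 3 (1 higher, 0 lower) or Set 4 (0 in either direction). Without Set 1 Tgfb2 alone remained (0.0709), in a fit that had 399 higher calls and 151 lower ones over all genes. The fit lacking Set 2 had 670 and 229. With the block, leaving out Set 1 gave 46 genes called higher and 23 lower, Set 2 gave 904 and 426, Set 3 gave 59 and 22, and Set 4 gave 129 and 30. Of the 10 genes these fits called 3 without Set 2 and 0 without Set 1, 0 without Set 3 and 0 without Set 4. Each of these fits holds fewer lines than the full one, that without Set 2 included, and the cause of the differences was not tested.

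Some log2 fold changes that were not called with condition alone turned sign when a line or set was left out, and their cause was not tested. They ranged from -0.08 to 0.33 for Tgfb3, -0.27 to 0.09 for Tgfbr3, -0.01 to 0.88 for Ltbp2, -0.08 to 0.34 for Itgb1, -0.22 to 0.08 for Strap, -0.12 to 0.26 for Fkbp1a and -0.69 to 2.62 for Tagln. With the block, Tgfbr3 was at 0.08 without Set 1 and 0.00 without Set 3. Each of the 10 genes had at least 560 normalized counts in every line. The biological coefficient of variation was 26.3%, and 14.1% with the block.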
